A study of Drosophila melanogaster with 23 samples.

Results

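HP1-rescue embryos were compared with control embryos to ask what stayed different in the folding of the genome after HP1 had been supplied again to HP1-depleted embryos. The comparison used 10 of the 23 Hi-C libraries of the series, 3 from HP1-rescue and 7 from control, which the authors had pooled into 1 contact map per group, so that 2 of 7 maps were compared. All embryos were *Drosophila melanogaster* at stage 5, the stage of zygotic genome activation (ZGA). HP1-rescue embryos came from mothers in which a Gal4 driver of the female germ line expressed a short hairpin RNA against HP1 together with a Flag-HA-tagged HP1 that the hairpin does not recognise. Control embryos carry the label WT at stage 5, and the labels do not name their line. The driver acts in the mother, so the embryos received less endogenous HP1 and the tagged protein as maternal load. The knockdown was partial, as a complete one stops development before ZGA. Where a value is set beside others, HP1-KD (5 labelled libraries, of which the map may hold fewer, hairpin without rescue) and H3K9M (2 libraries, histone H3 with lysine 9 replaced by methionine) are given, and both share the control map with HP1-rescue. The embryo label could not be checked against markers, since Hi-C gives no expression values.

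HP1 is a chromodomain protein that binds histone H3 methylated at lysine 9 and is most abundant on the repeat-rich DNA around centromeres. In the early *Drosophila* nucleus centromeres gather at one side and arms run in parallel away from them, which is known as the Rabl configuration. Along the arms chromatin forms topologically associating domains (TADs), separated by boundaries at which insulator proteins and active promoters lie, and sorts into active A and inactive B compartments. Hi-C joins and sequences DNA ends that were close in the nucleus, so that each read pair is 1 contact between 2 places.

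On the 5 long arms the control map held 296262636 whole contacts and the HP1-rescue map 74619458, against 184309195 in HP1-KD and 62813401 in H3K9M. Control was thus the deeper map, and results were recomputed with control thinned to 74637695 contacts. Values are balanced contacts, in which every bin of 10 kb has been given the same total, unless whole contacts are named. Of 13256 bins 13159 were used, 1544 of them pericentromeric. As each group is a single pooled map, no value has a replicate error and no test could be made. The range over the 5 arms describes how uniform a difference was, and arms are not replicates.

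HP1-rescue differed from control at the shortest distances, and over all used bins its same-bin share moved in the direction opposite to HP1-KD. In control 26.55% of whole within-arm contacts joined 2 ends in the same bin (95% Wilson interval 26.549 to 26.560, counting error only). In HP1-rescue the share was 33.93% (33.915 to 33.937), which is 7.37 percentage points higher. The difference lay between 7.16 points on 3R and 7.58 points on 3L. Intervals were far narrower than the difference, but they do not cover the spread between libraries.

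In same-bin contacts over all used bins HP1-KD and H3K9M lay on the other side of control. Of balanced within-arm contacts over all used bins, the same bin held 22.1% in control and 28.8% in HP1-rescue. It held 19.0% in HP1-KD and 20.8% in H3K9M, both below control. Contacts between adjacent bins were fewer than in control in all 3 maps. They made up 20.8% in control, 16.8% in HP1-rescue, 16.5% in HP1-KD and 20.1% in H3K9M. These shares depend on a total that holds the same-bin contacts. Scaled to within-arm contacts at 20 kb or more, outside pericentromeric regions, contact of adjacent bins was at a log2 ratio to control of -0.26 in HP1-rescue, -0.54 in HP1-KD and -0.12 in H3K9M. Together, contacts under 20 kb rose from 42.9% to 45.6%, by 2.73 points, with arms between 2.31 and 3.04.

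**Figure D1:**
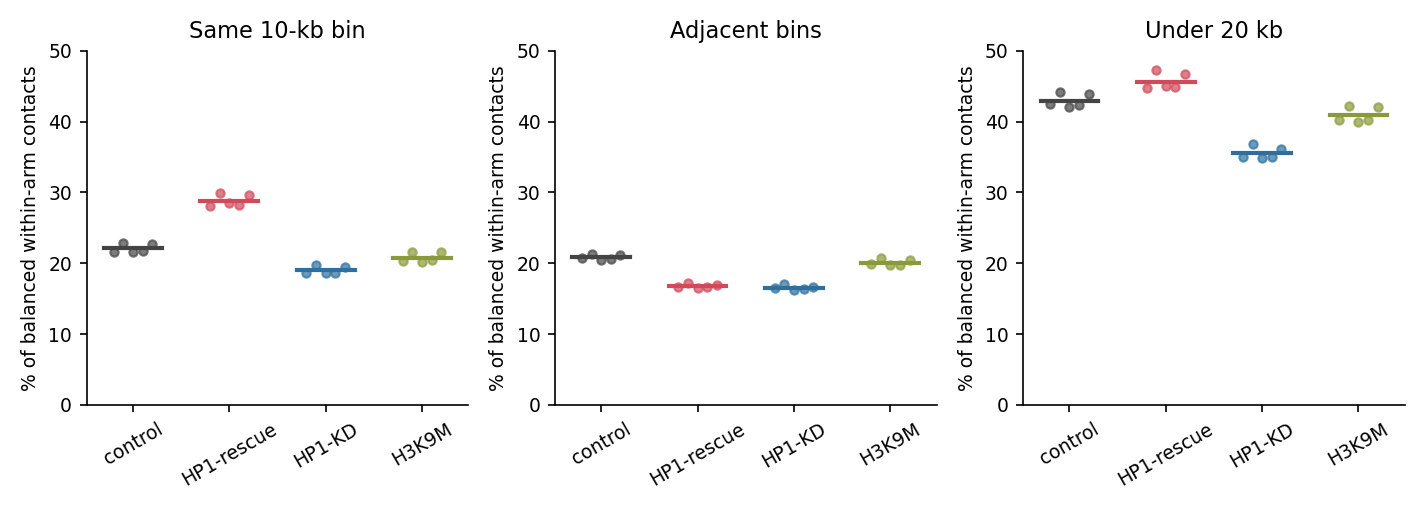
Share of balanced within-arm contacts (%) in the same bin, in adjacent bins and under 20 kb, for the 4 embryo maps. Points are the 5 arms and lines the value over all arms. HP1-rescue has the highest same-bin share, 28.8% against 22.1% in control, and a lower adjacent-bin share, 16.8% against 20.8%.

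The same-bin excess was largest in pericentromeric bins. There the balanced same-bin contact was at a log2 ratio of 0.88 to control, with arms from 0.79 on 3L to 1.00 on 2R, whereas HP1-KD was at -0.02 and H3K9M at -0.07. Outside these regions the ratio in HP1-rescue was 0.41, with arms from 0.39 to 0.44. The 2 ratios have different totals. The pericentromeric one was scaled to all contacts at 20 kb or more, those between arms included. The other was scaled to within-arm contacts at 20 kb or more outside these regions. Counted as whole contacts against those of the same arm at 20 kb or more, a check chosen after seeing the data, the log2 ratios were 0.89 in pericentromeric bins and 0.42 in arm bins. By the same count HP1-KD was above control in pericentromeric bins (0.11) and below it in arm bins (-0.47), and H3K9M was at 0.0009 and -0.15. Behind the pericentromeric value of HP1-rescue stood 1376733 same-bin contacts, against 3182743 in control. Beyond the same bin, pericentromeric regions differed little. Contacts on the same arm were at -0.09 from 20 to 100 kb and at 0.05 from 500 kb to 1 Mb. In the latter class X was at 1.34, with HP1-KD at 1.54 and H3K9M at -0.05. The X region, from 23000001 to 23542271, is the shortest and holds few pairs of bins at that distance.

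Along the arms, the same-bin share was above control in all 116 windows of 1 Mb outside pericentromeric regions, with log2 ratios from 0.31 to 0.65 and a median of 0.40. The highest ratios were in X from 22000001 to 23000000 (0.65), in 2R from 5000001 to 6000000 (0.57) and in X from 21000001 to 22000000 (0.57). In the first of these the share of whole contacts rose from 12.2% to 19.2%. Window shares are taken over the whole contacts summed for the bins of the window. That is another total than for the within-arm shares above, so the 2 kinds of percentage cannot be compared. These windows lie 0, 200 and 1010 kb from the pericentromeric border and hold 46, 43 and 53 protein-coding gene starts. The lowest ratios were in X from 19000001 to 20000000 (0.31), in 2L from 6000001 to 7000000 (0.32) and in 3R from 24000001 to 25000000 (0.33), with 126, 152 and 163 gene starts. Across the windows the ratio went down with the number of gene starts (Pearson's r -0.69, Spearman's rho -0.66) and with GC content (r -0.55). It also went down with the density of GATC, the site at which DpnII cuts (r -0.39). These are descriptions over neighbouring windows of 2 maps, which share libraries, depth and base composition, and the part of fragment size in the excess was not tested.

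Decay of contacts with distance remained milder than in control. Between 100 kb and 1 Mb the scaling exponent, the slope of log10 contact on log10 distance, was -1.51 in control and -1.22 in HP1-rescue. HP1-KD was at -1.03 and H3K9M at -1.31. The difference of 0.286 was alike on all arms, from 0.276 on 3R to 0.296 on X, and it was 0.281 on 2L, which carries a rearrangement described below. Over longer distances the difference was near 0 or turned, with 0.006 from 200 kb to 5 Mb and -0.25 from 1 to 10 Mb.

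Distance classes show where contacts were gained and lost. Both maps were scaled to the same total of within-arm contacts at 20 kb or more, so that the same-bin excess does not push the other classes down. From 20 to 50 kb HP1-rescue was at a log2 ratio of -0.27, from 50 to 100 kb at -0.21 and from 100 to 200 kb at -0.06. All 5 arms were below control in each of these classes. From 200 to 500 kb it was at 0.27, from 500 kb to 1 Mb at 0.63 and from 1 to 2 Mb at 0.63. All 5 arms were above control in each of these, with 0.59 to 0.70 from 500 kb to 1 Mb, a class that rests on 2457554 whole contacts in HP1-rescue. Contacts from 2 to 5 Mb were still higher, at 0.31. From 5 to 10 Mb the value was 0.06, with arms on both sides of 0, from -0.03 on X to 0.18 on 2L. In the finer step from 4720 to 5620 kb, 2L was at 0.32 and the other arms between 0.07 on X and 0.13 on 3R. HP1-KD was at 0.49 on 2L there. This step holds the 5.11 Mb between the 2 positions of the 2L rearrangement described below, whose part in the 2L value was not tested. Read by finer steps, the ratio crossed control at 170 kb and was highest from 970 to 1150 kb, at 0.69. In HP1-KD it crossed at the same step and reached 1.10, and H3K9M reached 0.45 from 810 to 960 kb. With this scaling HP1-rescue lay between HP1-KD and H3K9M in every class from 20 kb to 5 Mb. Scaled to all contacts it did not from 100 to 200 kb, where HP1-rescue was at -0.10, HP1-KD at 0.04 and H3K9M at 0.01, nor from 200 to 500 kb, where the values were 0.23, 0.64 and 0.24.

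**Figure D2:**
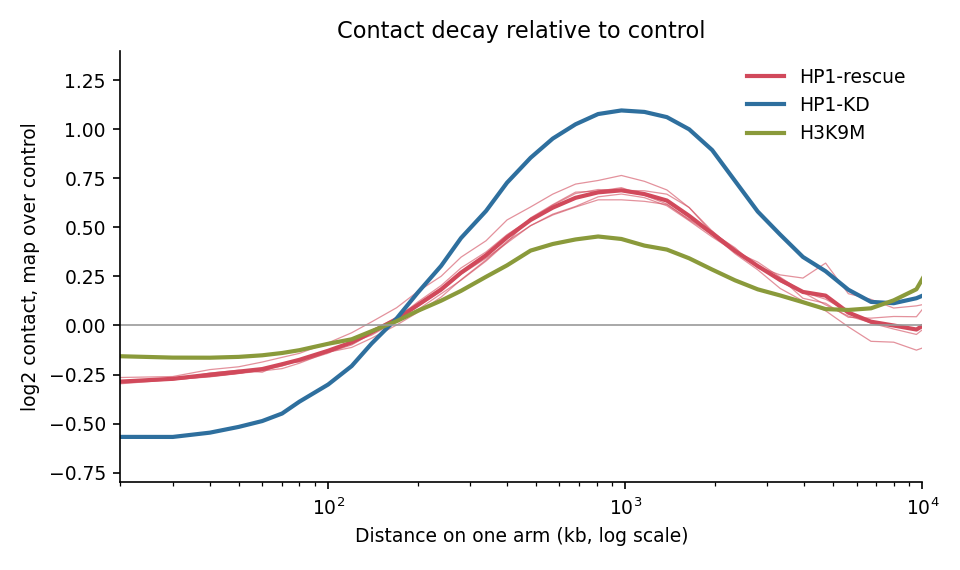
Log2 ratio of contact to control against distance on one arm (kb, log scale), each map scaled to its within-arm contacts at 20 kb or more. Thin lines are the 5 arms of HP1-rescue and thick lines all arms. HP1-rescue falls below control under 170 kb and peaks at 0.69 near 1 Mb, between HP1-KD and H3K9M.

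The gain at intermediate distances was spread over the genome. For contact from 100 kb to 1 Mb, 0 of 116 windows of 1 Mb had a log2 ratio above 0.5 and 0 below -0.5, a share of 0% in each direction. Above 0.3 were 18 windows, or 15.5%. The range mixes distances under 170 kb, where HP1-rescue was below control, with longer ones where it was above. A count of 0 past 0.5 therefore does not show how even the gain was. Of the 116 windows 114 were above 0, with a median of 0.23, against 0.38 in HP1-KD and 0.15 in H3K9M. The highest ratios were in 2R from 14000001 to 15000000 (0.40), in 3L from 1 to 1000000 (0.39) and in 3R from 16000001 to 17000000 (0.37). The lowest were in X from 22000001 to 23000000 (-0.12), in X from 21000001 to 22000000 (-0.02) and in 2L from 12000001 to 13000000 (0.01). Both X windows are also among the 3 with the highest same-bin excess. The 2L window holds one side of the rearrangement below. Windows with more gene starts gained more (r 0.57), as did those with more GATC sites (r 0.57).

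Contacts between chromosomes stayed fewer. They were counted from bins outside pericentromeric regions, with contacts under 20 kb left out of the total. The share was 9.68% in control and 8.31% in HP1-rescue, a difference of -1.37 points. It was -0.80 points with only same-bin contacts left out. HP1-KD had 7.51% and H3K9M 8.93%. Contacts within an arm rose from 85.7% to 87.5%. Counted per arm, each arm's share of contacts with other chromosomes changed by between -1.80 points on 2L and -2.74 points on X. For contact with other chromosomes, 2 of 116 windows were above control, and the median log2 ratio was -0.23. The place of HP1-rescue beside HP1-KD depends on the total. With all contacts in it, those under 20 kb included, the share between chromosomes was 5.775% in control and 4.74% in HP1-rescue. It was 5.01% in HP1-KD and 5.49% in H3K9M, so HP1-rescue was then the lowest.

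Taken over all arms, clustering of pericentromeric regions was nearer to control than in HP1-KD and H3K9M. Between pericentromeric bins of different arms the log2 ratio was -0.13, against -0.51 in HP1-KD and -0.33 in H3K9M. Of the arms 2L was at -0.19, 2R at -0.11, 3L at -0.11, 3R at -0.16 and X at 0.08. For X, HP1-KD was at -0.12 and H3K9M at -0.06, so HP1-rescue was not the nearest to control there. In HP1-rescue the pairs of 2L with X (0.28) and of 2R with X (0.28) were above control, and the pair of 2L with 2R was lowest (-0.23). The 2 pairs with X were both at -0.11 in HP1-KD, and at -0.38 and 0.21 in H3K9M. The class held 300311 whole contacts in HP1-rescue and 1363212 in control. Scaled to contacts between chromosomes alone, the value turned to 0.04.

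Contacts of pericentromeric bins with arm bins of other arms were at a log2 ratio of 0.08, with 0.15 on 2R, 0.11 on 3L and 0.06 on 2L but -0.04 on 3R and -0.01 on X. HP1-KD was at 0.20 and H3K9M at 0.32. The value fell to -0.04 when regions were redefined as the 2 Mb next to each centromere and rose to 0.25 when scaled to contacts between chromosomes. With same-bin contacts left in the total it was 0.0022. In single windows of 1 Mb, 82 of 116 were above control for balanced values and 99 for whole contacts. The most extreme windows were not stable. X from 13000001 to 14000000 was highest at 0.69 but at -0.09 in whole contacts, and 3L from 19000001 to 20000000 was lowest at -0.60 but at 0.23. 3R from 26000001 to 27000000 was at 0.67 (0.18 in whole contacts) and 3R from 9000001 to 10000000 at 0.64 (0.30). X from 10000001 to 11000000 was at -0.39 (-0.03) and 2R from 23000001 to 24000000 at -0.37 (-0.08).

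**Figure D3:**
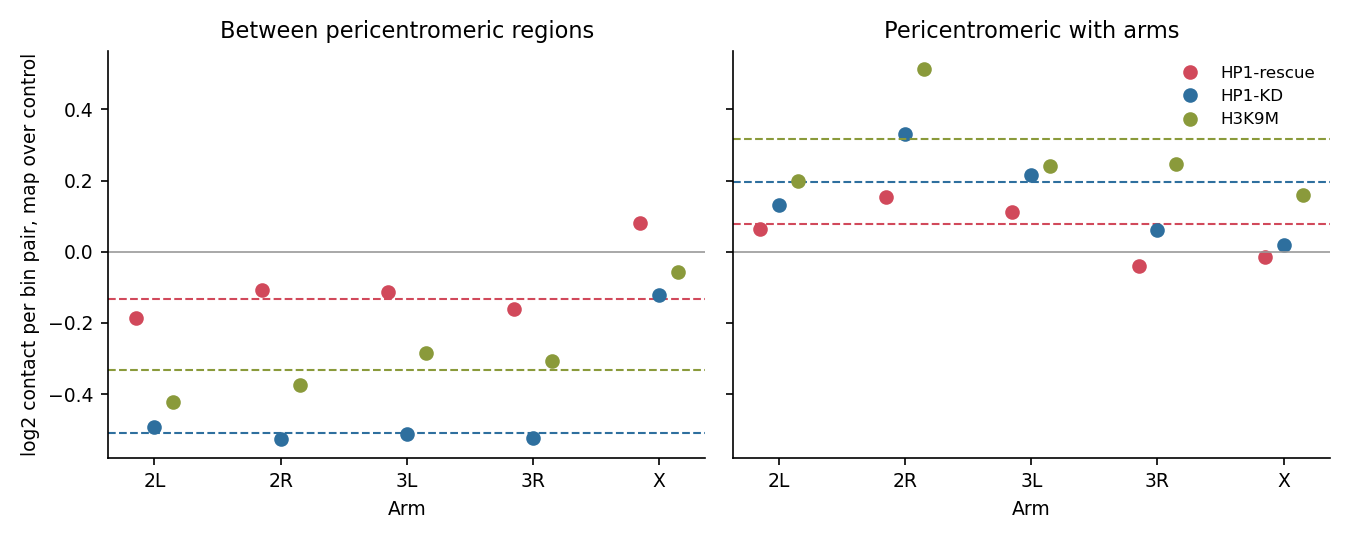
Log2 ratio to control of mean contact per bin pair by arm, between pericentromeric regions of different arms (left) and between pericentromeric and arm bins of other arms (right), scaled to contacts without those under 20 kb. Points are arms and dashed lines all arms together. Over all arms HP1-rescue is at -0.13 on the left and 0.08 on the right, nearer to 0 than HP1-KD and H3K9M.

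Alignment of arms compares bins of 2 arms that lie equally far from the pericentromeric border, to within 1 Mb, with bins for which this offset is 5 Mb or larger. The ratio of their mean contacts was 2.58 in control and 2.49 in HP1-rescue, a change of -3.5%, with HP1-KD at 2.20 and H3K9M at 2.16. Of the 10 pairs of arms 6 were lower and 4 higher, from -11.2% for 2R with 3R to 10.4% for 2L with X. The change was smaller than the spread over pairs. It was -6.9% with the comparison bins at 10 Mb or more and -1.6% without 2R.

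TAD boundaries stayed shallower. Depth is the drop of log2 contact in a diamond of 100 kb at a boundary relative to positions 100 kb to either side. At 738 control boundaries its mean was 0.77 in control, 0.63 in HP1-rescue, 0.41 in HP1-KD and 0.64 in H3K9M. The difference of -0.14 was alike on all arms, from -0.16 on 2L to -0.13 on 2R and X. Of the 738 boundaries 633 were shallower, 257 (34.8%) by over 0.2, and 8 (1.08%) were deeper by over 0.2. Grouped by depth in control, which itself favours control in the deeper groups, boundaries between 0.5 and 1 went from 0.76 to 0.62 and those of 1.5 or more from 1.82 to 1.52. Loss was partial, since of 490 boundaries with a depth of 0.5 or more, 3 kept at most 0.5 of it. Boundaries were called on control, which favours their depth there. At 670 boundaries called on HP1-rescue, control was nevertheless the deeper map, at 0.81 against 0.69. Of 742 control boundaries 634 (85.4%) lay within 1 bin of one of 676 in HP1-rescue (93.8% of these), and the share that unrelated positions would give was not computed.

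**Figure D4:**
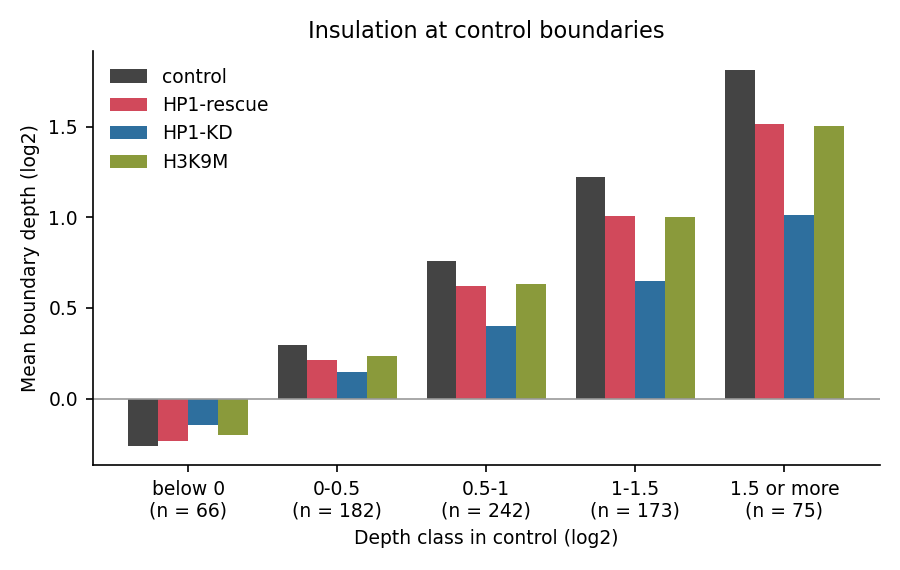
Mean boundary depth (log2) in the 4 embryo maps at control boundaries, grouped by their depth in control, with the number of boundaries under each group. In the deepest group HP1-rescue is at 1.52, below control at 1.82 and above HP1-KD at 1.01.

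The boundaries with the largest loss lay in bins with several genes, but the number of genes was not compared with that of other boundary bins. The first, on 3R from 13660001 to 13670000, holds *B52*, which encodes a splicing factor of the SR family, *Hrb87F*, which encodes an RNA-binding hnRNP protein, and *Task6*, which encodes a potassium channel. Its depth was 2.60 in control, 1.99 in HP1-rescue, 1.27 in HP1-KD and 1.92 in H3K9M. On 3L from 10660001 to 10670000, with *simj*, which encodes a subunit of the NuRD chromatin complex, and *Adi1*, an enzyme of methionine salvage, depth was 2.16, 1.57, 1.06 and 1.73 in the same order. On 2L from 7820001 to 7830000 it was 1.52, 0.96, 0.79 and 1.21. That bin holds *Rack1*, a scaffold protein of the ribosome, *mts*, the catalytic subunit of protein phosphatase 2A, and *LanB1*, a laminin chain. The next 2 were on 2L from 13830001 to 13840000, with *Orc5* of the origin recognition complex and the RNA polymerase II subunit *Polr2C* (1.37 to 0.84), and from 1710001 to 1720000, with the planar polarity gene *frtz* (1.06 to 0.57). All 5 stayed shallower without balancing, by 0.26 to 0.72.

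Promoters are shown for the first 3 of these boundaries because boundaries of fly TADs lie at active promoters with short insulator and promoter motifs. Each is the start site nearest to the centre of the bin, from 250 bases before to 50 from it onwards, on the strand of the gene, read from the RefSeq genome of the dm6 build. *B52* is at chr3R:13661338-13661637 (plus strand), *simj* at chr3L:10664489-10664788 (plus) and *Rack1* at chr2L:7827197-7827496 (minus). Capitals mark matches on either strand to CGATA, the core of the BEAF-32 insulator motif, to TATCGATA, the DNA replication-related element, which includes that core, to GAGAG, the GAGA factor motif, and to CAGGTAG, the motif of Zelda.
B52: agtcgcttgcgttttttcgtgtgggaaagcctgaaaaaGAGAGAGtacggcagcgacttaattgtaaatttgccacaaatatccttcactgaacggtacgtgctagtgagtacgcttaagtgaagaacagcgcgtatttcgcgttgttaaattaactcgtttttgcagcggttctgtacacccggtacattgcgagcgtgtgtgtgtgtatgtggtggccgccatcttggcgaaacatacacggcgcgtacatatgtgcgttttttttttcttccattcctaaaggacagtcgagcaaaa
simj: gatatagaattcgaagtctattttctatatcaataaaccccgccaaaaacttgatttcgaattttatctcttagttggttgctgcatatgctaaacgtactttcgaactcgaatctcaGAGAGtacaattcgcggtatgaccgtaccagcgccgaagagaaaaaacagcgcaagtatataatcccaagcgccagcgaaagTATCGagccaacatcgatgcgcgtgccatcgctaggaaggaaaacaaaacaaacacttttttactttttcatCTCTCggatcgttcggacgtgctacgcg
Rack1: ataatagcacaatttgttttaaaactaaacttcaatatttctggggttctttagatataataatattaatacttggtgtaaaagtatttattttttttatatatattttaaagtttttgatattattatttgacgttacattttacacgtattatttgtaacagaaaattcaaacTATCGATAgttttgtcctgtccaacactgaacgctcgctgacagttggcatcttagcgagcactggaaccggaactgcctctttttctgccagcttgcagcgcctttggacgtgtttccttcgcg
The *Rack1* promoter holds the replication-related element, and with it the BEAF-32 core on both strands. The *simj* promoter holds 1 BEAF-32 core and 2 GAGA motifs, and the *B52* promoter 2 overlapping GAGA motifs. The Zelda motif is not in these windows. Of 19112 promoters of this length on the long arms, 45.7% hold the BEAF-32 core, 7.99% the replication-related element, 33.2% the GAGA motif and 1.68% the Zelda motif. Of the 2462 that start in a bin of a control boundary, the shares were 53.7%, 11.7%, 30.7% and 1.62%. These are matches of letters and not sites of binding.

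Gains of depth were few, and 2 of the 5 named turned sign without balancing. The largest was on X from 21790001 to 21800000, at *lncRNA:flam*, which lies at the *flamenco* cluster of PIWI-interacting RNAs against transposons. Depth rose there from 1.47 to 2.40, and from 3.54 to 4.19 without balancing, but the diamond held only 238 whole contacts in control and 47 in HP1-rescue. The next, on X from 22260001 to 22270000, rose from 2.99 to 3.83, but without balancing from 1.18 to 1.24. At *fog*, which encodes a secreted ligand of gastrulation, depth went from 0.54 to 0.68. At the *Hsp70B* heat shock cluster the balanced gain of 0.12 was -0.18 without balancing, and at *pros*, a neuroblast transcription factor, 0.10 became -0.05.

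Contacts within and between compartments were compared in bins of 40 kb ranked on the control eigenvector, a choice that favours control, and contact at 500 kb or more was taken over that expected by distance. Between the 20% lowest bins (B/B) it was 1.62 in control and 1.64 in HP1-rescue, a change of 1.0%, with HP1-KD at 1.31 and H3K9M at 1.53. Arms lay on both sides, with 7.3% on 3L, 5.6% on 2L and 1.9% on 3R but -6.3% on 2R and -10.4% on X. The sign turned at equal depth (-1.8%), without balancing (-3.9%) and in bins of 10 kb (-2.0%), and the change was 9.9% with bins ranked by HP1-rescue, so no direction is given. Between the 20% highest bins (A/A) contact fell from 1.14 to 1.07, by 6.0%, and it was lower on all 5 arms, from -3.5% on 2R to -11.0% on 2L. HP1-KD and H3K9M were both at 1.12. The A/A value was not recomputed under other settings. Contact across (A/B) was 0.70 and 0.72. On 2L, 3L and 3R, where the eigenvectors of both maps correlated at 0.93 to 0.96 across bins, 60 of 552, 64 of 574 and 57 of 697 bins had opposite signs. On 2R and X the correlations were -0.51 and -0.10, and signs were not compared there. A turn of sign alone would leave both correlations weaker than on the other arms. Which components these eigenvectors are was not tested.

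Single places on the map also stayed different, and on 2L these included a rearrangement. An inversion joins places that were distant, which raises contacts between the new neighbours. Pairs of 100-kb bins at 2 Mb or more on 1 arm were compared with the contact expected at their distance. Of 54512 pairs 54 (0.0991%) had a log2 ratio of 2 or more to control, and 23 of them were among the 10415 on 2L (0.221%), against 7 on 2R, 8 on 3L, 4 on 3R and 12 on X. Without balancing 17 were called on 2L, and the other arms were not recounted. Some calls off 2L rest on balanced values. The 3R pair from 12400001 with 19900001 was at 3.64, with 32 whole contacts in HP1-rescue and 124 in control, the deeper map. In others whole contacts were higher too, as on X from 1 to 100000 with 5600001 to 5700000 (77 and 2). Of the 23 on 2L 10 lay within 500 kb of a pair of positions 5.11 Mb apart. There the 10-kb bins from 7220001 to 7230000, with *Ndae1*, a sodium-dependent anion exchanger, and *mEFG1*, a mitochondrial elongation factor, and from 12330001 to 12340000, with *CG31862*, made 88 contacts in HP1-rescue. They made 1 in control, 351 in HP1-KD and 1 in H3K9M.

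An inversion brings like sides of its ends together. Bins to the left of the first position contacted those to the left of the second at 12.2 per 1000000 contacts in HP1-rescue and 1.28 in control. Right sides contacted right sides at 19.4 and 2.90. The mixed quadrants, left with right and right with left, were at 2.49 and 3.00 in HP1-rescue and 1.94 and 1.81 in control. In HP1-KD the values of the first 2 quadrants were 21.0 and 39.9, and in H3K9M 1.81 and 3.04. The junction pair itself was at 1.18 per 1000000 contacts in HP1-rescue and 1.90 in HP1-KD, and adjacent bins of 2L averaged 13.5 in HP1-rescue. How many of the embryos carried the inversion was not estimated. The pairs with the highest log2 ratios on 2L lay elsewhere, from 1700001 to 1900000 with 20200001 to 20300000 (6.26 and 6.48). HP1-rescue had 23 and 21 whole contacts there and control 5 and 3, and H3K9M had 20 and 22.

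Contacts of the donor loci of transgenes were read as a check of the labels. A transgene inserted elsewhere carries copies of its donor sequences, whose reads align to the donor locus, so that contacts of the insertion site appear between it and the donor locus. The gene of HP1 itself, in 2L from 8200001 to 8220000, had 108 contacts with the bins of *w*, the eye pigment transporter used as a marker, in HP1-rescue (exact Poisson interval 88.6 to 130). Control and HP1-KD had 1 each and H3K9M 0. With *y*, the body pigment gene, it had 63 in HP1-rescue and 1 in control. With *fs(1)K10*, a gene of oocyte polarity named here after its values were seen, it had 83 and 1. With 2L from 1570001 to 1600000, at *haf*, *nis* and their neighbours, it had 73 in HP1-rescue, 4 in control, 2 in HP1-KD and 1 in H3K9M. This region is the bin with most contacts with *w* and 1 bin to either side, and was also chosen after its values were seen. Outside HP1-rescue, the HP1 gene had at most 4 contacts with any of these places. With *v* it had 1 contact in HP1-rescue and 1 in control.

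The same 2L region contacted the markers in HP1-rescue and H3K9M. *w* had 319 contacts with it in HP1-rescue, 354 in H3K9M, 4 in control and 2 in HP1-KD. *y* had 468, 673, 6 and 0 in the same order. A different region, on 3L from 11050001 to 11080000, chosen in the same way, contacted *v*, a tryptophan oxygenase of eye pigment synthesis, with 945 contacts in HP1-rescue, 2005 in HP1-KD, 4 in control and 0 in H3K9M. HP1-rescue thus carried both sets of contacts. *y* with this 3L region was higher in control, at 22.6 per 1000000 contacts against 8.71 in HP1-rescue, 10.4 in HP1-KD and 0.350 in H3K9M, a pair named after its values were seen.

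**Figure D5:**
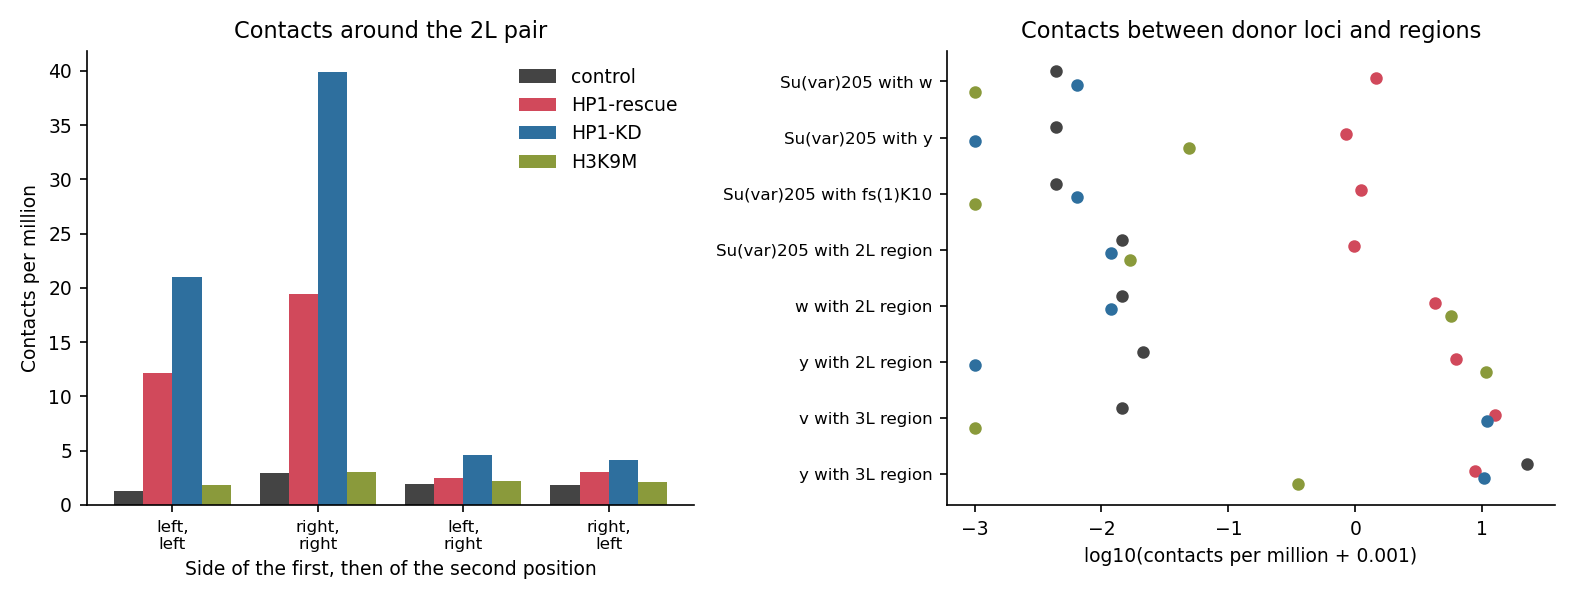
Left, contacts per 1000000 contacts in the 4 quadrants around the 2L pair, each named by the side of the first and of the second position. Right, log10 of (contacts per 1000000 contacts + 0.001) between donor loci and other places. In HP1-rescue the HP1 gene contacts *w*, *y*, *fs(1)K10* and the 2L region, at 63 to 108 contacts each, and the other maps have 4 or fewer.

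Over all pairs of 10-kb bins between arms or at 2 Mb or more, 84065050 were searched. In HP1-rescue 124 pairs (0.000148%) had 25 or more contacts and 2 or fewer in control scaled to the depth of HP1-rescue, and they formed 48 foci. Of these pairs 49 held the HP1 gene, *w*, *v* or *y*. Outside pericentromeric regions lay 37 of the foci, and the peak was high in HP1-KD as well for 16 of them and in H3K9M for 9. High means 25 or more contacts when the map is scaled to the depth of HP1-rescue. The share of all searched pairs that are high in those 2 maps was not computed. Other foci outside pericentromeric regions were *y* with 2L from 2720001 to 2730000 (251 contacts in HP1-rescue, 0 in control, 411 in HP1-KD) and 2R from 19250001 with *Ptp61F*, a tyrosine phosphatase, on 3L (128, 0 and 321). *kek1*, a transmembrane protein, on 2L had 97 contacts with a bin on 3R from 13380001 in HP1-rescue, 1 in control and 64 in H3K9M. The pair of 2R from 5050001 with *Irk1*, a potassium channel, on 3R from 23160001 had 63 contacts in HP1-rescue, 0 in control, 1 in HP1-KD and 0 in H3K9M. The 2R bin of this pair holds no listed gene, lies near the pericentromeric border at 4800000 and stood in 14 gained pairs. It had 214 contacts with X from 420001 in HP1-rescue (1 in control, 347 in HP1-KD). With pericentromeric 2L from 23350001 it had 58 (0 in control, 68 in H3K9M), and with 3L from 11800001 it had 55 (0 in control). The focus with *Irk1* thus does not stand alone. These foci were chosen after their values were seen.

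In the other direction, 26 pairs (3.09e-05%) in 19 foci had 25 or more contacts in scaled control and 2 or fewer contacts in HP1-rescue. Outside pericentromeric regions lay 16 of the foci, with the peak high in HP1-KD for 10 of them and in H3K9M for 6. Of these foci 9 shared 1 bin, on X from 8290001 to 8300000, which holds part of *nAChRalpha3*, a subunit of the nicotinic acetylcholine receptor. With *Mef2*, a muscle transcription factor on 2R, it had 215 contacts in control, 1 in HP1-rescue, 104 in HP1-KD and 28 in H3K9M. With *nAChRalpha6* on 2L it had 157, 0, 83 and 19. The same bin also stood in gained foci, with 2R from 10430001 (27 contacts in HP1-rescue and 7 in control, the deeper map) and with 3R from 27300001 (27 and 5). All contacts of this bin came to 226 per 1000000 contacts in control, 113 in HP1-rescue, 270 in HP1-KD and 168 in H3K9M. The bin was chosen after its values were seen.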

How the data were processed

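Hi-C libraries were made from hand-staged embryos, fixed with formaldehyde and cut with DpnII. The authors processed the reads with HiC-Pro 2.11.1 on dm6, per the submitters' processing notes, pooled the libraries of a group and deposited for each group the balanced contact signal of pairs of 10-kb bins. Read filters are not given in the sources used here. Deposited values of each map sum to 50000000. The members and lists were chosen with earlier results of these data known.

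One factor per bin was solved from contacts between chromosomes, mostly single ones, and whole contacts were recovered, with 100% of values under 20 whole within 0.02. Bins with contacts in all maps were used. Pericentromeric regions were runs of 100-kb windows from the centromere in which at least 30% of a running 500 kb was repeat-masked or unknown. Boundaries are minima with a prominence of 0.2. Distances are taken from the reference, also across the rearrangement. Intervals cover counting error only. Named were the 3 highest and 3 lowest windows per measure, the 5 largest losses and gains among boundaries with a depth of 0.5 or more, up to 3 peak pairs per search, and the loci of HP1, w, v and y. The measures were tested on simulated data with known answers. Python 3.11.15, numpy 2.4.6, scipy 1.17.1 and pandas 2.3.3 were used. The S2 cell maps and the authors' other files were not used here.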

Additional observations from a re-analysis of the deposited data

Results flagged for a closer look

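Outside the 5 long arms, the share of contact ends was read only for the mitochondrial genome and chromosomes 4 and Y. In HP1-rescue it was above control in all 3. On the mitochondrial genome it was 0.475% against 0.248% in control, with 0.582% in HP1-KD and 0.318% in H3K9M. On chromosome 4 it was 1.05% against 1.03%, with 1.19% and 1.15%. On chromosome Y it was 0.153% against 0.123%, with 0.136% and 0.147%. These chromosomes entered no comparison above.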

How the results depend on the processing

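No paired analysis was possible because each group is 1 pooled map and no column carries a replicate number. Leaving out each replicate was not possible for the same reason, and each arm was left out in turn instead. Of 129 alternatives 103 moved a result by less than its SD over arms or pairs, or a count by less than 1.5 times, 18 moved it further and 8 turned its sign. That SD is wide for arm alignment, B/B contacts and pericentromeric contacts with arms, so values within it ranged from -6.9% to -1.6%, up to 5.4% and down to 0.0022. Many of the alternatives left out 1 of the 5 arms, which can mostly move a value only little against the SD over arms. Leaving out an arm also cannot raise a count of 0 windows. The number of alternatives within the SD is therefore no measure of how stable the results are. The change of B/B contacts turned to -0.23% without 2L, -0.40% without 3L, -2.0% in 10-kb bins, -3.9% without balancing and -1.8% at equal depth, and was 9.90% when HP1-rescue ranked the bins. The exponent difference was 0.27 with the proximal 2 Mb as the pericentromeric region, 0.0063 from 200 kb to 5 Mb and -0.25 from 1 to 10 Mb. Scaled to contacts between chromosomes, pericentromeric contacts between arms turned to 0.045 and those with arms rose to 0.25, and the latter turned to -0.040 with the proximal 2 Mb. The boundary difference was -0.12 with a diamond of 50 kb, -0.13 at HP1-rescue boundaries, -0.17 at a prominence of 0.4 and -0.10 without balancing. The share between chromosomes differed by -0.93 points without X and by -0.80 with only same-bin contacts left out. The same-bin difference was 6.76 points in balanced values. The share under 20 kb differed by 2.35 points without the 10% of bins with the fewest entries and by 3.11 without balancing. The class from 500 kb to 1 Mb was at 0.57 with same-bin contacts left in the total and at 0.69 with only these left out. Windows past a log2 ratio of 0.3 numbered 18. Pairs on 2L numbered 247 at a log2 ratio of 1 and 77 in 50-kb bins. At equal depth pairs on 2L numbered 31 against 23 and pairs of the transgene loci 47 against 49.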
